A study of Rattus norvegicus with 8 samples.

Results

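The genes described here code for enzymes that write or erase chemical marks on histones and on DNA, together with the Prdm family of chromatin regulators. They were taken by name from the array's own annotation: Hdac, Kdm, Dnmt, Setd, Ezh, Suv and Prdm genes, Tet1 to Tet3, Ehmt1, Ehmt2, Crebbp, Ep300, Kat2a, Kat2b and Kat5. The array carried 67 such gene names on 99 probes. Of these 67 genes, 61 had a probe detected well above background on 4 or more arrays and were tested, among 22796 genes tested in all. The rule goes by name, detection and probe brightness, not by the difference between groups, and was written with earlier results of these data known. A gene was represented by its brightest kept probe, and its level is the log2 processed signal minus the 75th percentile of the same array. Levels are therefore relative to the array, can be negative, and are not compared between genes, because each probe has its own efficiency.

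Both groups were primary hippocampal neurons of newborn Wistar rats, taken on postnatal day 0 to 1 and infected on day 3 in vitro with a lentivirus at a multiplicity of infection of 6. RNA was collected 7 days later, on day 10, and 100 ng of it was labelled for a one-colour array. In 4 control samples the virus expressed a scrambled shRNA, and in 4 knockdown samples 1 shRNA against rat Sirt6, the gene of a NAD-dependent nuclear deacetylase of histone H3. All 8 arrays therefore come from virus-treated neuronal cultures, in which markers of glia were also detected, and there was 1 knockdown sequence and 1 scrambled one. The labels do not tie the samples of a group to separate cultures or animals, so every p-value measures a spread between samples that could be technical only. The scrambled arrays filled 1 row of a single slide and the Sirt6 shRNA arrays the other, so the group and the row of the slide cannot be told apart.

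Histone acetyltransferases such as p300 and CBP open chromatin by acetylating lysines, and histone deacetylases remove those groups as parts of corepressor complexes. Lysine methylation can accompany either state: methylation of H3K4 is found at active promoters, that of H3K9 and H3K27 in silent chromatin, and each has its own methyltransferases and demethylases. DNA methyltransferases add methyl groups to cytosine and Tet enzymes oxidise them, and in postmitotic neurons several of these enzymes are known regulators of activity-dependent genes and of memory.

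In every array with its shRNA, Sirt6 was low: processed signals ran from 1318 to 1347 with the scrambled shRNA and from 446.3 to 489.3 with the Sirt6 shRNA, and the groups did not overlap. Between 60.4% and 65.3% of probes were well above background on an array. Across genes, which are no replicates, 2 arrays of the same group correlated at 0.9954 to 0.9975 and 2 of different groups at 0.9912 to 0.9935. Defining neuronal markers were well above background in both groups, and so were markers of glia, with values given beside the results they accompany.

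Of the 61 genes, 19 passed limma's test with Benjamini-Hochberg adjustment over all genes at an adjusted p under 0.05, 14 higher and 5 lower with the Sirt6 shRNA. That is 31.1% of the genes against 30.3% of all genes tested, a share near the background and so not a result about these enzymes. Counts within a role, given below, rest on 1 to 8 tested genes and are to be read against the same 30.3%. In the higher direction the share was 23.0% against 15.5% of all genes, and in the lower direction 8.20% against 14.8%. In 21 genes, or 34.4%, the 4 arrays of one group lay wholly to one side of the other 4, against 33.3% of all genes. These were the 19 called genes and, without a call, Kdm2a and Kdm8. The median log2 fold change was 0.056 over the 61 genes and 0.02 over all genes, and 44 of the 61 lay above 0.

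Most called differences were small, with a median absolute log2 value of 0.21, against 0.30 for all called genes on the arrays, and 3 of the 19 changed by more than 1.5-fold. Those 3 were Prdm8 and Prdm6, which rose, and Hdac5, which fell. Over the other settings and omissions their smallest log2 differences were 0.26, 0.23 and -0.51, all below 1.5-fold. The direction balance depended on scaling: with each array centred on its median the counts were 7 higher and 6 lower, and with scaling on the spike-in probes 6 higher and 1 lower, while the share of higher among all calls moved from 51.2% to 35.2% and 64.0%. The sign of all 19 called genes was the same under every scaling and every omission of an array.

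**Figure D1:**
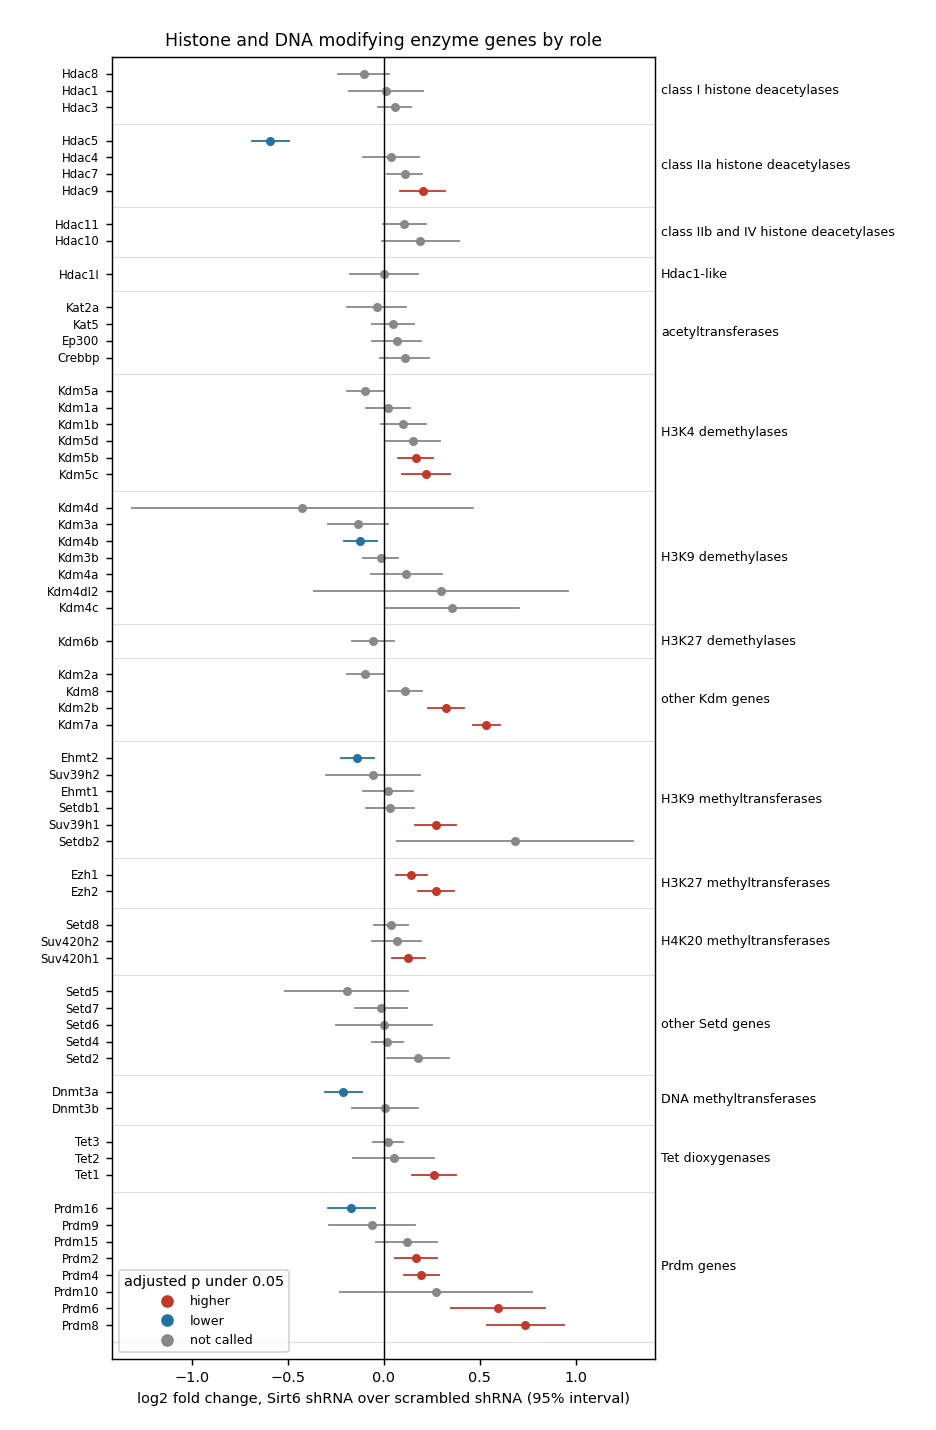
Log2 fold change (Sirt6 shRNA over scrambled shRNA, horizontal axis) of the 61 tested genes, grouped by role, with 95% intervals of the limma fit from 4 arrays against 4. Red marks the 14 genes called higher, blue the 5 called lower and grey the 42 not called; Hdac5 stands apart on the left, and Prdm8, Prdm6 and Kdm7a are the furthest called genes on the right.

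Hdac5 showed the only change above 1.5-fold among the deacetylases and the largest fall of any called gene here. It encodes a class IIa deacetylase, a signal-responsive corepressor that shuttles between nucleus and cytoplasm and binds MEF2 factors. Levels were 1.12, 1.13, 1.06 and 1.12 in scrambled arrays 1 to 4 and 0.55, 0.43, 0.55 and 0.53 in Sirt6 shRNA arrays 1 to 4. Every Sirt6 shRNA array lay below every scrambled array, with a gap several times the spread inside either group. The difference was -0.59 ± 0.041 (SE) in log2, adjusted p = 7.10e-05, which left 66.5% of the control level.

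No other class IIa gene was called lower. Hdac9, a MEF2-interacting repressor, read 2.02, 1.90, 1.88 and 1.90 in the scrambled arrays and 2.04, 2.11, 2.14 and 2.21 in the Sirt6 shRNA arrays. Scrambled array 1 was the highest of its group and lay just under the lowest Sirt6 shRNA array. The rise was 0.20 ± 0.051 (SE), adjusted p = 0.0206, and the call was lost without scrambled array 2, 3 or 4 or Sirt6 shRNA array 3, with adjusted p of at most 0.0566. The next-brightest Hdac9 probe differed by only 0.006, and with the mean of the kept probes the call was lost. Hdac4 and Hdac7 were not called, with log2 fold changes of 0.04 (95% interval -0.11 to 0.18) and 0.11 (0.02 to 0.20).

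Since Hdac5 rests on 1 probe, its sequence is shown beside those of 2 other probes that, like it, cover more than 60 bases of the rn4 genome in the array's coordinates, so that each lies across an exon junction. Such kept probes number 11 among these genes, and those of Hdac4 and Kdm5a were picked after their values were seen. The other 8 ranged from -0.14 to 0.19 on the log2 fold change scale. Each is given 5′ to 3′ as printed in the array files, without capitals because no part is singled out, and each has 2 reading frames without a stop codon.
Hdac5, chr10:91267403-91267871, minus strand: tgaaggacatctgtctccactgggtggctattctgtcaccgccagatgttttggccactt
Hdac4, chr9:91162605-91164068, minus strand: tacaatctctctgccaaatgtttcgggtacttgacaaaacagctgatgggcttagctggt
Kdm5a, chr4:156765482-156768957, plus strand: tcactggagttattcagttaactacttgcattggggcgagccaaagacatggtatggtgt
The Hdac5 and Hdac4 probes come from related stretches of the paralogues, and in their best ungapped overlap 22 of 32 bases were the same, 68.8%. The Hdac4 probe shown is not the brightest for that gene. It read -1.40, -1.64, -1.31 and -1.69 in the scrambled arrays and -1.72, -1.68, -1.83 and -1.84 in the Sirt6 shRNA arrays, a difference of -0.26 ± 0.091 (SE) that missed the threshold (adjusted p = 0.0702 over all kept probes). The brightest Hdac4 probe differed by 0.04, and the gap between the 2 probes gave a two-sided exact permutation p of 0.0571 (0.206 after Benjamini-Hochberg over 18 genes), where 0.0286 is the smallest that 4 arrays against 4 allow. This comparison of probes was chosen after seeing the data.

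No class I, IIb or IV deacetylase gene that was tested was called. The array annotation carried no gene named Hdac6, so class IIb rests on Hdac10. Hdac1, a catalytic subunit of the Sin3, NuRD and CoREST corepressor complexes, read 2.54, 2.37, 2.19 and 2.16 in the scrambled arrays and 2.33, 2.38, 2.29 and 2.31 with the Sirt6 shRNA, and the narrow Sirt6 shRNA range lay inside the scrambled one. Its difference was 0.01 (95% interval -0.18 to 0.20). Its sign was not stable to scaling and neither was that of Hdac1l, the near-identical Hdac1-like gene, at 0.47, 0.46, 0.19 and 0.28 in the scrambled arrays and 0.32, 0.45, 0.25 and 0.37 with the Sirt6 shRNA. Probes of 60 bases may not separate these copies, so both values are uncertain.

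Hdac11, the class IV enzyme, read 3.72, 3.70, 3.69 and 3.78 in the scrambled arrays and 3.78, 3.77, 3.83 and 3.95 in the Sirt6 shRNA arrays, with scrambled array 4 level with the lowest Sirt6 shRNA arrays. The difference was 0.11 ± 0.049 (SE), adjusted p = 0.136. Hdac3, Hdac8 and Hdac10 ranged from -0.10 to 0.19 without a call. The probe for Hdac2 was well above background on 0 arrays, so the gene was not tested.

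The 4 acetyltransferase genes measured, Crebbp, Ep300, Kat2a and Kat5, were not called. Their log2 fold changes ran from -0.04 to 0.11, with 95% intervals inside -0.19 to 0.24. No gene named Kat2b was in the array annotation. Kat5, which encodes TIP60, the catalytic subunit of the NuA4 complex, read 3.47, 3.37, 3.29 and 3.40 in the scrambled arrays and 3.44, 3.41, 3.39 and 3.49 with the Sirt6 shRNA. The groups overlapped over most of their range, and the difference was 0.05 ± 0.048 (SE).

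Among the demethylases, Kdm7a and Kdm2b rose by amounts well beyond the replicate spread. Kdm7a removes methyl groups from H3K9 and H3K27. It read -0.48, -0.47, -0.50 and -0.47 in the scrambled arrays and 0.06, 0.02, 0.07 and 0.07 in the Sirt6 shRNA arrays. No other gene here had replicates so close together, and the groups were far apart. The rise was 0.53 ± 0.031 (SE), adjusted p = 3.77e-05, and its dimmer second probe differed by 0.39.

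Kdm2b, an H3K36 demethylase that brings a variant Polycomb repressive complex to unmethylated CpG islands, read 4.14, 4.15, 4.16 and 4.08 in the scrambled arrays and 4.40, 4.43, 4.49 and 4.51 with the Sirt6 shRNA. Every Sirt6 shRNA array was above every scrambled one. The rise was 0.32 ± 0.040 (SE), adjusted p = 8.29e-04. Its paralogue Kdm2a moved little: the groups did not overlap, with all 4 Sirt6 shRNA arrays lower, but the difference of -0.10 ± 0.041 (SE) did not pass (adjusted p = 0.116). Kdm8, also without overlap, differed by 0.11 ± 0.039 (SE), adjusted p = 0.0628.

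Of 6 H3K4 demethylase genes, 2 were called higher and none lower, 33.3% against 30.3% of all genes, and both calls were lost under median centring and under spike-in scaling. Kdm5c, an X-linked gene mutated in intellectual disability, read 1.12, 1.09, 1.27 and 1.21 in the scrambled and 1.36, 1.33, 1.41 and 1.48 in the Sirt6 shRNA arrays. The groups did not overlap, though scrambled array 3 came near the lowest Sirt6 shRNA array. The rise was 0.22 ± 0.054 (SE), adjusted p = 0.0178. A second Kdm5c probe of similar signal differed by -0.02, and with the mean of both probes the call was lost (adjusted p = 0.138).

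Kdm5b, which removes H3K4 trimethylation, read 1.54, 1.53, 1.52 and 1.503 in the scrambled arrays and 1.66, 1.65, 1.66 and 1.78 with the Sirt6 shRNA, with Sirt6 shRNA array 4 well above its group. The rise was 0.17 ± 0.040 (SE), adjusted p = 0.0164, against 0.171 with median centring and 0.114 with spike-in scaling. Kdm5a, its paralogue, was not called on its brightest probe (-0.10, adjusted p = 0.128), while the junction probe printed with that of Hdac5 read -2.87, -2.96, -2.84 and -2.82 in the scrambled arrays and -3.22, -3.21, -2.93 and -3.30 with the Sirt6 shRNA and fell by 0.29 ± 0.081 (SE), adjusted p = 0.0294 over all kept probes. The remaining Kdm5a probe differed by -0.07. The Y-linked Kdm5d differed by 0.15 ± 0.061 (SE), adjusted p = 0.0987, beside -0.06 for Ddx3y and -0.01 for Eif2s3y, also on the Y chromosome. Kdm1a and Kdm1b, which encode the LSD1-type amine oxidases, were not called.

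Of the 7 H3K9 demethylase genes 1 was called, beside 30.3% of all genes. Kdm4b, whose product acts on trimethylated H3K9 and H3K36, read 2.14, 2.08, 2.16 and 2.18 in the scrambled arrays and 2.03, 1.99, 2.02 and 2.04 in the Sirt6 shRNA arrays. The ranges did not overlap but lay close together. The fall was 0.12 ± 0.036 (SE), adjusted p = 0.0387, and it failed the threshold in 7 of the 8 omissions of an array, all but that of scrambled array 2, with adjusted p of at most 0.0962. It also failed with the mean of the kept probes, and the next-brightest Kdm4b probe gave -0.07. The remaining genes ranged from -0.42 for Kdm4d to 0.35 for Kdm4c. Kdm4d had a dim probe with an SD of 0.82 among the scrambled arrays, and it shares sequence with its copy Kdm4dl2, so these 2 are uncertain. Kdm6b, the H3K27 demethylase JMJD3, read -0.32, -0.19, -0.19 and -0.24 in the scrambled arrays and -0.21, -0.31, -0.29 and -0.35 with the Sirt6 shRNA, with overlapping groups and a difference of -0.06 ± 0.047 (SE). Kdm6a was not tested: its probe carries an accession that RefSeq assigns to Uty, the Y-linked homologue, and was not well above background.

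Both of the 2 H3K27 methyltransferase genes were called higher, beside 15.5% of all genes. Ezh2, the catalytic subunit of Polycomb repressive complex 2 in dividing cells, read -2.82, -2.74, -2.75 and -2.70 in the scrambled arrays and -2.54, -2.46, -2.44 and -2.47 in the Sirt6 shRNA arrays. All Sirt6 shRNA arrays lay above all scrambled ones. The rise was 0.27 ± 0.041 (SE), adjusted p = 0.0022. The Ezh2 probe was dim, with processed signals of only 44.3 to 63.0. Over the other settings and omissions the rise ran from 0.10 to 0.35. Ezh1, the subunit that predominates in postmitotic cells, rose by 0.14 ± 0.035 (SE), adjusted p = 0.0177, a call lost under median centring and under spike-in scaling. Of 15 proliferation markers 2 were higher and 1 lower, and their summed linear level ran from 14.2 to 15.7 in the scrambled and from 14.9 to 19.6 in the Sirt6 shRNA arrays. Their part in the Ezh2 result was not tested.

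Of 6 H3K9 methyltransferase genes 1 was called higher, 1 lower and 4 were not called, beside 30.3% of all genes called. Suv39h1, which trimethylates H3K9 in heterochromatin, read 1.60, 1.65, 1.62 and 1.73 in the scrambled arrays and 1.87, 1.91, 1.90 and 1.999 with the Sirt6 shRNA, with no overlap. The rise was 0.27 ± 0.046 (SE), adjusted p = 0.00374, and 0.0531 with spike-in scaling. Its paralogue Suv39h2 differed by -0.05 without a call.

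Ehmt2, which encodes the H3K9 mono- and dimethyltransferase G9a, read 0.74, 0.73, 0.73 and 0.68 in the scrambled and 0.57, 0.65, 0.56 and 0.54 in the Sirt6 shRNA arrays. The ranges lay close but apart, with scrambled array 4 nearest to the Sirt6 shRNA arrays. The fall was 0.14 ± 0.037 (SE), adjusted p = 0.0274, and the call was lost without scrambled array 1, 2 or 3 or Sirt6 shRNA array 1, 3 or 4, with adjusted p of at most 0.0715. The next-brightest Ehmt2 probe gave -0.24, but with the mean of the kept probes the call of Ehmt2 was lost. Its partner gene Ehmt1 differed by 0.02. Setdb2 had the largest uncalled difference, 0.68 ± 0.27 (SE), adjusted p = 0.0893, and also lies just inside the rule for being tested: its probe was well above background on 5 arrays, 2 scrambled and 3 Sirt6 shRNA. Just outside it lies Dnmt3l, with 1 array. Without Sirt6 shRNA array 3, which read -5.60 against -4.65 to -4.59 in the others, Setdb2 rose by 0.93 (adjusted p = 0.0123).

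Among the H4K20 methyltransferases, Suv420h1 (also named Kmt5b) rose by 0.13 ± 0.037 (SE), adjusted p = 0.0325, a call lost in 7 of 8 omissions (all but that of Sirt6 shRNA array 2, adjusted p of at most 0.0877). Its next-brightest probe differed by 0.046, and with the mean of the kept probes the call was also lost. Setd8 and Suv420h2 were not called. None of the 5 other Setd genes was called, with a range from -0.19 for Setd5 to 0.18 for Setd2. Setd4 read 2.62, 2.61, 2.67 and 2.62 in the scrambled arrays and 2.69, 2.65, 2.64 and 2.61 with the Sirt6 shRNA, and its groups overlapped.

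Of the DNA methyltransferases, Dnmt3a fell and Dnmt3b did not differ beyond its spread. Dnmt3a, the main de novo methyltransferase of neurons, read 0.64, 0.55, 0.70 and 0.59 in the scrambled arrays and 0.44, 0.40, 0.36 and 0.44 in the Sirt6 shRNA arrays. All 4 Sirt6 shRNA arrays were below the lowest scrambled array. The fall was 0.21 ± 0.042 (SE), adjusted p = 0.00766. The call was lost under spike-in scaling (adjusted p = 0.329). A second kept Dnmt3a probe gave -0.11 ± 0.059 (SE) with overlapping groups, and was not called (adjusted p = 0.186 over all kept probes). With the mean of the kept probes the call of Dnmt3a was kept. Dnmt3b differed by 0.01 (95% interval -0.16 to 0.18), and Dnmt1 had no probe that passed the filter.

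Tet1, which oxidises 5-methylcytosine, read -1.21, -1.21, -1.32 and -1.22 in the scrambled arrays and -0.88, -0.999, -0.97 and -1.07 with the Sirt6 shRNA. The lowest Sirt6 shRNA array stood above the highest scrambled array. The rise was 0.26 ± 0.050 (SE), adjusted p = 0.00631. Tet2 and Tet3 differed by 0.05 and 0.02, neither called, with upper 95% limits of 0.26 and 0.10.

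Among called genes, Prdm8 and Prdm6 held the largest rises as reported, both on dim probes. Prdm8, a transcriptional repressor of neural development, read -3.55, -3.36, -3.52 and -3.24 in the scrambled arrays and -2.75, -2.77, -2.51 and -2.69 in the Sirt6 shRNA arrays. Every Sirt6 shRNA array was above every scrambled array. The rise was 0.74 ± 0.087 (SE), adjusted p = 6.98e-04, or 1.67-fold. Its processed signals were only 26.7 to 60.2. Over the other settings and omissions the rise ran from 0.26 to 0.81, while that of Kdm7a ran from 0.40 to 0.61.

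Prdm6, a repressor known from smooth muscle, read -3.51, -3.28, -3.52 and -3.57 in the scrambled arrays and -3.13, -2.80, -2.67 and -2.89 with the Sirt6 shRNA, and Sirt6 shRNA array 1 lay nearest to the scrambled arrays without reaching them. The rise was 0.60 ± 0.11 (SE), adjusted p = 0.00448. Of 10 fibroblast, mural and endothelial markers 6 were higher and 0 lower, and their summed linear level ran from 18.4 to 20.8 in the scrambled and from 29.4 to 34.4 in the Sirt6 shRNA arrays. Among them the smooth muscle genes Acta2, Tagln and Myh11 rose by 0.71, 2.14 and 0.92. Their part in the Prdm6 result was not tested, and in bulk RNA fewer or more cells of a type and less or more RNA per cell cannot be told apart.

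Prdm4, which interacts with the neurotrophin receptor p75, read 2.62, 2.51, 2.60 and 2.55 in the scrambled arrays and 2.78, 2.72, 2.81 and 2.75 with the Sirt6 shRNA and rose by 0.20 ± 0.040 (SE), adjusted p = 0.00829. Prdm2, an H3K9 methyltransferase also named RIZ, read 1.63, 1.63, 1.77 and 1.78 in the scrambled arrays and 1.87, 1.84, 1.88 and 1.87 with the Sirt6 shRNA and rose by 0.17 ± 0.047 (SE), adjusted p = 0.0318. Neither gene's groups overlapped. The Prdm4 call was lost under median centring (adjusted p = 0.0666), spike-in scaling (0.0737) and the mean of its kept probes (0.117). Both kept Prdm2 probes gave 0.17, but the call was lost without scrambled array 1 or 2 or Sirt6 shRNA array 1, 3 or 4 (adjusted p of at most 0.0824).

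Prdm16, a regulator of neural stem cells and of brown fat, was the only Prdm gene called lower. It read 0.73, 0.67, 0.84 and 0.61 in the scrambled and 0.57, 0.53, 0.56 and 0.50 in the Sirt6 shRNA arrays, with scrambled array 4 just above the highest Sirt6 shRNA array. The fall was 0.17 ± 0.053 (SE), adjusted p = 0.0457, lost in 7 of 8 omissions, all but that of scrambled array 4 (at most 0.1002). Prdm9, Prdm10 and Prdm15 were not called, and Prdm1 and Prdm11 had no probe that passed the filter. Of 12 astrocyte markers 1 was higher and 9 lower, with summed linear levels from 486.2 to 537.2 in the scrambled and from 376.2 to 412.5 in the Sirt6 shRNA arrays, and their part in the falls described here was not tested. Of 12 microglia and macrophage markers 1 was higher and 3 lower (25.6 to 50.3 with the Sirt6 shRNA, 35.5 to 49.9 without), and of 10 oligodendrocyte markers 1 was higher and 3 lower (42.9 to 44.8, against 48.2 to 53.3). Of 12 neuronal markers 5 were higher and 1 lower, with sums from 180.8 to 186.7 in the scrambled and from 185.3 to 207.3 in the Sirt6 shRNA arrays.

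**Figure D2:**
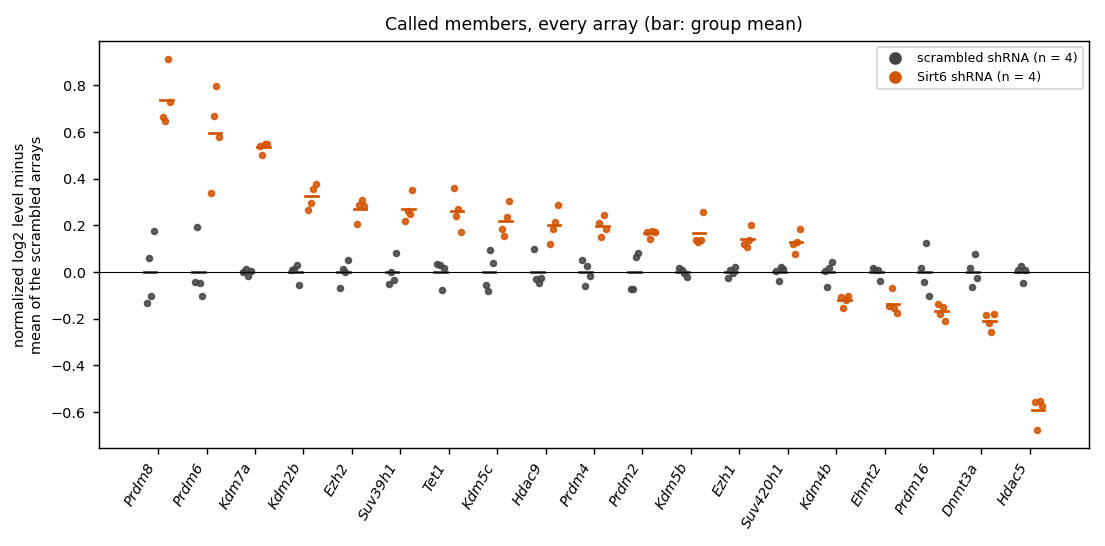
Normalized log2 level of the 19 called genes on each array, minus the mean of the gene's 4 scrambled arrays (vertical axis), with scrambled shRNA in grey, Sirt6 shRNA in orange and bars for group means. No gene's groups overlap, and the gaps between the nearest arrays of the groups are widest for Hdac5, Kdm7a and Prdm8.

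Of the called genes, 7 kept their call in all 8 omissions of an array and under all 14 other settings. They were Prdm8, Prdm6, Kdm7a, Kdm2b, Ezh2, Tet1 and Hdac5. Of these only Kdm7a had more than 1 kept probe. For the other genes the mean of the kept probes could not change the difference, so that setting was no check of them. Median centring ended the calls of Ezh1, Kdm5b, Kdm5c, Suv420h1, Prdm2, Prdm4 and Hdac9, and spike-in scaling those and the calls of Dnmt3a, Kdm4b, Ehmt2, Suv39h1 and Prdm16. With no filter on dim probes the calls of Ezh1, Kdm5b, Kdm4b, Ehmt2, Suv420h1, Prdm16, Prdm2 and Hdac9 were lost. Quantile normalization ended those of Kdm4b and Prdm16, array weights that of Prdm16 and normexp background correction that of Ehmt2. Over the omissions alone 13 of 19 genes kept their call. Without scrambled array 1 or 3, or Sirt6 shRNA array 1, 3 or 4, 2 genes were called lower in place of 5, and without scrambled array 2 or Sirt6 shRNA array 2, 3 were.

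The 42 uncalled genes bound the size of any difference. In 37 of them the 95% interval lay within 1.5-fold in both directions, so that for these genes a larger difference is outside the interval. The exceptions were Kdm4c, Kdm4d, Kdm4dl2, Setdb2 and Prdm10, all with wide replicate spread. Replicate SD within a group had a median of 0.074 over the 61 genes and exceeded 0.2 in 6 of them.

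Probes of the same gene did not always share a sign. Of 18 genes with more than 1 kept probe, 13 had the same sign on all kept probes. Over the scalings and omissions 9 to 14 did, with 9 of 18 under normexp background correction and under quantile normalization. As reported, the exceptions were Hdac1l, Hdac4, Hdac8, Kdm5c and Setd8. A shared sign did not mean a shared size. With the mean of a gene's kept probes the calls of Hdac9, Kdm5c, Suv420h1, Prdm4, Kdm4b and Ehmt2 were lost. In Hdac8 the brightest probe gave -0.10 and 3 others gave 0.09, 0.13 and 0.59, none called. In Setd8 the probe on chr12:33270032-33270091 gave -0.16 and the brightest 0.04. Which transcripts each probe reads was not analysed here.

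**Figure D3:**
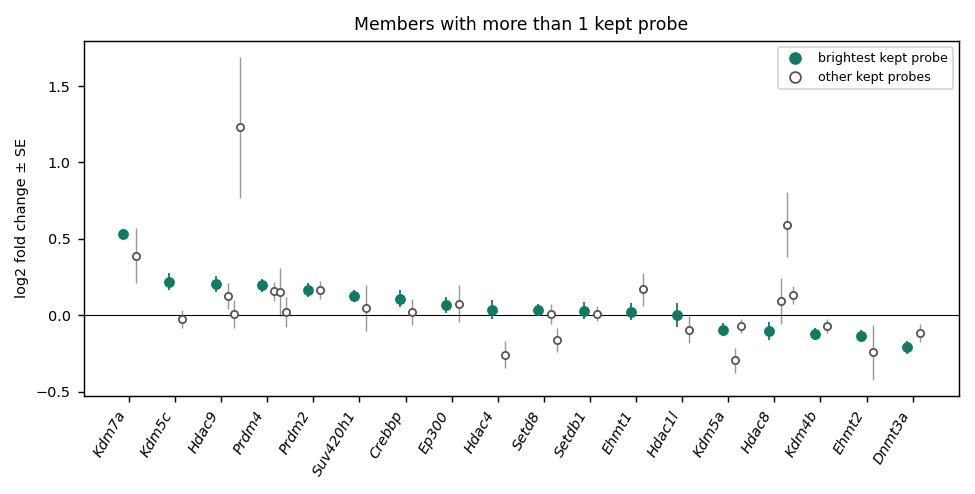
Log2 fold change ± SE (vertical axis) of the brightest kept probe (filled) and of every other kept probe (open) for the 18 genes with more than 1 kept probe. Open and filled symbols sit on opposite sides of 0 for Kdm5c at 0.22 and -0.02 and for Hdac4 at 0.04 and -0.26.

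RefSeq promoter sequences (GRCr8, 250 bases before to 50 after the start) were matched for 51 of the 61 genes, among them all 5 genes called lower and 11 of the 14 called higher. They were searched on both strands for a cyclic AMP response element (TGACGTCA), a GC box (GGGCGG), an E-box (CACGTG) and the CCAAT box, whose name spells its letters, none of which contains another. The E-box was in 6 of 51, or 11.8%, against 8.78% of the promoters of all tested genes and 6.42% of all 33469 promoters. It was in 4 of the 5 called lower, in 0 of the 11 called higher and in 2 of the 35 not called. Over all genes it was in 10.6% of those called lower and in 8.77% of those called higher. A match is a description of these letters, and 2 of the 4 falls concerned, Ehmt2 and Kdm4b, did not survive most omissions. Prdm16, the other gene called lower, had 0 E-boxes and is not shown. Of the motifs searched only the E-box is marked, and no rule set beforehand chose it. The upstream 250 bases of the 4 genes called lower that carry it are shown, 5′ to 3′ on the gene's strand, with the E-box in capitals.
Hdac5, chr10:87688055-87688304, minus strand: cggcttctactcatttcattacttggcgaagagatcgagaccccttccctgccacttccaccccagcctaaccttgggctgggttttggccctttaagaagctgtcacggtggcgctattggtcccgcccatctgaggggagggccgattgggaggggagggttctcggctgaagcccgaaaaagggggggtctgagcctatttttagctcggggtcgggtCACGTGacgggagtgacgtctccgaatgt
Dnmt3a, chr6:32598352-32598601, plus strand: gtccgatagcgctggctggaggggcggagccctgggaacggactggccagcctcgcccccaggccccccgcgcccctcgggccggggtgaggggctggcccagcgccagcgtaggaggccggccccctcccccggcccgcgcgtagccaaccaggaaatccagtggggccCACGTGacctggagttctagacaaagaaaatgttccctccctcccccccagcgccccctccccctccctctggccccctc
Ehmt2, chr20:3940711-3940960, minus strand: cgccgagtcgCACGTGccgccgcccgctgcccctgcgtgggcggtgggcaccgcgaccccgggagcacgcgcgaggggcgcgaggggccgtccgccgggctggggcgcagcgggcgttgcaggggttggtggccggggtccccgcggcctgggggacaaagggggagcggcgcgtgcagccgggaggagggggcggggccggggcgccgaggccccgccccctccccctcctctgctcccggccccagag
Kdm4b, chr9:1245653-1245902, plus strand: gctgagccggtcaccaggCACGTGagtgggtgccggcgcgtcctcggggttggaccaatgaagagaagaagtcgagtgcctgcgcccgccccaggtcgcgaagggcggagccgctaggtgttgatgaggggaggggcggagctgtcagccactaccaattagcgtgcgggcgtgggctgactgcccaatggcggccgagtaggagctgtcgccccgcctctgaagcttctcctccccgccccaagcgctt
The GC box was in 4 of the 5 called lower, 4 of the 11 called higher and 23 of the 35 not called, and the CCAAT box in 3, 7 and 13 of them. The response element was in 0, 0 and 1. Over all matched genes these motifs were in 1 of 51 (response element), 31 of 51 (GC box) and 23 of 51 (CCAAT box), against 2.96%, 57.2% and 37.4% of tested genes' promoters and 1.83%, 33.1% and 37.5% of all promoters.

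Partners of these enzymes were read from lists of complexes and pathways, each compared with 30.3% of all genes called and with the overall median of 0.02. Of 31 subunits of Polycomb repressive complexes 2 and 1, 6 rose and 10 fell, 51.6%, with a median of 0.01. Cbx2, a chromobox reader of H3K27 methylation, rose by 0.57 ± 0.048 (SE). The accessory subunit Phf19 fell by 0.58 ± 0.096 (SE), and Rbbp4, a histone-binding subunit shared with NuRD and Sin3, by 0.48 ± 0.053 (SE). Ezh1 and Ezh2 are not in that list.

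DNA methylation readers and demethylation genes were called in 9 of 18 cases, 4 higher and 5 lower, 50%, with a median of 0.07. Gadd45b, an activity-induced gene tied to DNA demethylation in neurons, fell by 0.91 ± 0.085 (SE), and the cytidine deaminase gene Apobec1 by 0.63 ± 0.100 (SE). Ogt, whose product binds Tet proteins and adds GlcNAc to proteins, rose by 0.39 ± 0.096 (SE), a call lost in 2 omissions.

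Other acetyltransferase genes rose in 9 and fell in 2 of 27, 40.7%, with a median of 0.06. The coactivator gene Ncoa1 and Jade1, which encodes a subunit of the HBO1 complex, rose by 0.27 and 0.26. Taf5l, a SAGA-type complex subunit gene, fell by 0.38. Of 34 genes of deacetylase corepressor complexes 5 rose and 5 fell, 29.4%, with a median of -0.02. The CoREST genes Rcor1, Hmg20b and Phf21a rose by 0.34, 0.30 and 0.27, the last not under median centring.

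Bromodomain and remodeler genes rose in 6 and fell in 6 of 36, 33.3%, with a median of 0.02. Smarcd1 of the BAF complex rose by 0.34, and Baz1a, a subunit gene of ISWI-type remodelers, fell by 0.33, a call lost in 6 omissions. H3K4 methyltransferase complexes of the COMPASS type had 2 higher and 1 lower of 17, 17.6%, with a median of 0.08: Cxxc1 at 0.26, Kmt2e at 0.21 and Wdr82 at -0.16. HP1 proteins and H3K9 readers had 3 higher and 0 lower of 15, 20%, with a median of 0.05: Zfp57 at 0.35, Cbx1 at 0.22 and Atf7ip at 0.19.

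The remaining histone methyltransferases had 4 higher and 3 lower of 21, 33.3%, with a median of 0.07, and 3 of the 21 are also among the 61 genes. Whsc1l1, which encodes the H3K36 methyltransferase NSD3, and the neuronal arginine methyltransferase gene Prmt8 fell by 0.30 and 0.28, and Smyd5 rose by 0.25. The 2 other kept Whsc1l1 probes gave -0.14 and 0.11, and with the mean of the kept probes its call was lost. Other demethylase genes had 2 higher and 1 lower of 12, 25%, with a median of 0.02. Phf2, which encodes an H3K9 demethylase, fell by 0.35, a call lost under spike-in scaling. Phf8 and Jmjd6 differed by 0.15 and 0.14: Phf8 passed the threshold as reported but in none of the 8 omissions and in 3 of the 14 other settings, and Jmjd6 failed in 5 omissions and 5 settings. Of the 7 sirtuin genes, Sirt1 rose by 0.26 (lost under median centring, adjusted p = 0.0503, and spike-in scaling, 0.0622), Sirt2 fell by 0.22 (lost under spike-in scaling, 0.237), Sirt6 fell as the target, and the others were not called, with a median of -0.03. None of the list genes named changed sign under any omission or setting. Calls also lost under spike-in scaling were those of Atf7ip, Baz1a, Cxxc1, Kmt2e, Prmt8, Smyd5, Wdr82 and Whsc1l1, and under median centring those of Atf7ip, Cbx1, Cxxc1, Phf21a and Smyd5. Lost in at least 5 omissions were Atf7ip, Baz1a, Jmjd6, Phf8, Smyd5 and Wdr82.

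**Figure D4:**
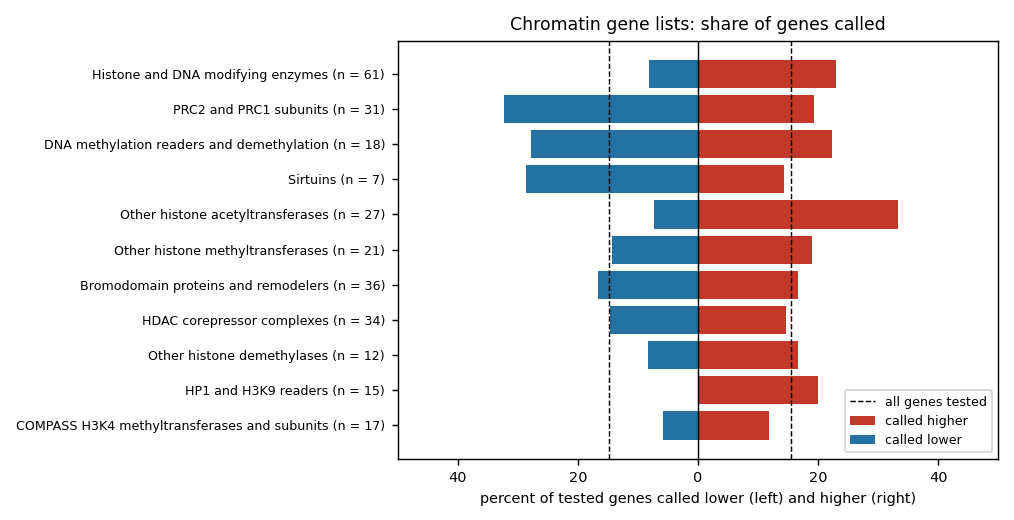
Percent of tested genes called lower (left of 0) and higher (right of 0) in the 61 enzyme genes and in 10 lists of chromatin genes, with n the genes tested. Dashed lines mark the 14.8% lower and 15.5% higher of all genes; the Polycomb list reaches furthest to the left, with 10 of 31 lower.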

How the data were processed

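Total RNA was measured on 8 one-colour Agilent arrays, 4 per group, with groups and replicate numbers from the labels. The submitters' processing notes name Agilent Feature Extraction 11.5.1.1, and per the file headers its processed spot intensity is background-subtracted and detrended, without any normalization between arrays. The authors' deposited table of log2 values equals the log2 processed intensity minus 1 constant per array (SD of the difference at most 0.0029), with column medians from -3.70 to -3.59. Its 75th percentile was 0.0075 to 0.01 on every array, so it nearly repeats the scaling used here. It was run as an alternative, but its calls are not an independent check. Probe positions are the rn4 coordinates of the array files, and no genome sequence was used.

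Controls and outlier spots were left out and replicate spots averaged as log2 values. From these the array's 75th percentile (over 45598 probes) was taken off. The filter asked for detection well above background on 4 or more of 8 arrays and kept 28620 probes, of which the brightest stood for its gene. limma 3.58.1 in R 4.3.3 (lmFit, eBayes, two-sided) compared the groups, with Benjamini-Hochberg adjustment over 22796 genes and calls at an adjusted p under 0.05. The median array signal was 24.1 to 27.5, and the number of arrays limits the precision. The fit was tested on simulated data.

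The enzyme genes, the pathway and marker lists and the tests were chosen with earlier results of these data known. Genes are named by rule: up to 12 called genes per direction with values on every array, the brightest gene of each role without a call, and up to 3 called genes per list, of which 1 is not reported here. Summed marker levels add linear levels relative to the 75th percentile. Kdm2a, Kdm5d, Kdm8 and Setdb2, genes named as exceptions and the probe comparisons were chosen after their values were seen. Alternatives covered background correction (normexp, offset 50), quantile, median and spike-in scaling, the authors' values, 16 added to each signal, 2 other probe filters, the mean of probes, RefSeq names, all kept probes, eBayes with trend, array weights, the replicate block and each array left out. RefSeq promoters were matched by symbol.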

Additional observations from a re-analysis of the deposited data

Results flagged for a closer look

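In each of the 122 groups of 4 arrays (61 genes in both conditions), the highest or lowest array was set against Dixon's 95% critical value. Chance flags about 1 in 20 such groups, which is 6.1 here, and 8 were found. Among called genes, Kdm5b read 1.78 on Sirt6 shRNA array 4 against 1.65 to 1.66 on the others, and Prdm2 read 1.84 on Sirt6 shRNA array 2 against 1.87 to 1.88. In the scrambled arrays Hdac9 read 2.02 on array 1 against 1.88 to 1.90, Tet1 read -1.32 on array 3 against -1.22 to -1.21, and Ehmt2 read 0.68 on array 4 against 0.73 to 0.74. Without that array the calls of Kdm5b, Prdm2 (array 2), Hdac9 (array 1), Tet1 and Ehmt2 (array 4) were kept. Among uncalled genes, Setdb2 read -5.60 on Sirt6 shRNA array 3 against -4.65 to -4.59, and without it Setdb2 was called higher. Kdm8 read 1.43 on Sirt6 shRNA array 4 against 1.34 to 1.36, and Kdm4dl2 read -2.73 on Sirt6 shRNA array 2 against -4.09 to -3.88.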

How the results depend on the processing

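Among the 61 genes, the count called higher was 14 as reported and 7 with median centring, 6 with spike-in scaling and 9 with no filter on dim probes. It ran from 11 to 15 over the omissions of 1 array. The count called lower was 5, and 3 with quantile normalization, 1 with spike-in scaling and 2 with no filter, and it ran from 2 to 4 over the omissions. Over all genes, 3531 were higher and 3366 lower, 2011 were higher with median centring, and spike-in scaling gave 2102 higher and 1182 lower. Omissions gave 2630 to 3291 higher and 2693 to 3327 lower. Spike-in scaling rests on 7 probes and ended 12 of the 19 calls, with the median of all genes at 0.09, and median centring ended 7. No called gene changed sign. Of the 42 uncalled genes 20 changed sign under at least 1 setting or omission, and 7 were called under at least 1, Setdb2 only in an omission. Of those described array by array, Hdac1 went to -0.035 and Setd4 to -0.027 with median centring, and Kdm6b to 0.018 with spike-in scaling. Hdac1l went to -0.043 with median centring, -0.046 with the mean of its probes and -0.0098 with array weights. Over the omissions Hdac1 ran from -0.041 to 0.085 and Hdac1l from -0.052 to 0.043. The cause of these moves was not tested.

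The replicate numbers were not treated as pairs. Same-numbered arrays deviated together with correlations of 0.06, 0.16, 0.13 and 0.03, and 2 of the 4 numbers correlated best with their own. With the replicate block, 13 of the 61 genes were higher and 4 lower, and 3212 and 3239 of all genes; the calls of Hdac9 and Kdm4b were lost. Dim probes such as those of Setdb2, Kdm4d and Kdm4dl2 limit what their genes can show, and Setdb2 was not tested with probes well above background on all 8 arrays.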
